A study of Mus musculus with 9 samples.

Results

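The genes described here are the transcription factor p53, encoded by *Trp53*, and 9 of its target genes in cell cycle arrest, feedback, cell death and stress signalling: *Cdkn1a*, *Mdm2*, *Ccng1*, *Bbc3*, *Bax*, *Pmaip1*, *Trp53inp1*, *Sesn2* and *Phlda3*. They were chosen by symbol, and all 10 were found among the 14670 genes of the expression table. A company sequenced 9 libraries of RNA from embryonic cerebral cortex, dissected from mice on embryonic day 16.5 (E16.5). There were 3 libraries per genotype: control, *Fzd3* -/- (*Fzd3* mutant) and *Celsr3* -/- (*Celsr3* mutant). *Fzd3* encodes a frizzled receptor and *Celsr3* a seven-pass cadherin, and both take part in planar cell polarity and axon guidance. The mutant mice were on a mixed C57Bl/6 and CD1 background. Controls are wild type (+/+) in the labels but heterozygous or wild-type littermates in the methods, and RNA was extracted with Trizol according to the labels and with an RNeasy kit according to the methods. The labels name neither the litter, the sex nor the number of embryos of a library, so *P* values measure the spread between these libraries, part of which may be technical.

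As background, p53 is kept low in unstressed cells because the ubiquitin ligase MDM2, itself the product of a target gene, marks it for degradation. DNA damage, mitotic delay or ribosomal stress lets the p53 protein accumulate, mostly without a change in its mRNA, and the protein then raises the transcription of its targets. In the embryonic cortex, p53 activation is known for the loss of neural progenitors by apoptosis in several mouse models with disturbed mitosis or DNA repair. The comparisons below address whether target mRNAs differ between mutant and control cortex. Progenitor and cell cycle genes also differed between *Fzd3* mutant and control.

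Binding sites of p53 consist of a pair of adjoining 10-base motifs, and promoter windows of 8 of the 10 genes were found in the RefSeq table for GRCm38.p6, 11 windows in all, each covering 250 bases before to 50 bases after a start site. *Pmaip1* and *Trp53inp1* were not matched. The p53 consensus motif, which reads the same in its letter classes on either strand, had an exact match in 5 of the 11 windows (45.5%), against 8.36% of all 32851 promoter windows. A 20-base element was defined as 2 motifs without a spacer. At most 2 mismatches were allowed, none of them at the central C and G of each motif. Such an element was found in 2 of the 11 windows (18.2%), against 0.326% of all windows. Windows of other p53 targets lay between, with an exact 10-base match in 12 of 52 (23.1%) and the 20-base element in 2 of 52 (3.85%). The stretches with a match are shown here, including that of *Trp53*. Capitals mark exact 10-base matches and, in *Cdkn1a* and *Ccng1*, the 20-base element with 1 mismatch. They lie at chr17:29090876-29090977 on the plus strand for *Cdkn1a*, chr11:40755432-40755511 on the minus strand for *Ccng1*, chr10:117710905-117710974 on the minus strand for *Mdm2*, chr7:45467060-45467129 on the minus strand for *Bax* and chr11:69580254-69580323 on the plus strand for *Trp53*.
Cdkn1a: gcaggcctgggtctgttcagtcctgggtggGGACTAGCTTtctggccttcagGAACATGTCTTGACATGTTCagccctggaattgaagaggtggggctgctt
Ccng1: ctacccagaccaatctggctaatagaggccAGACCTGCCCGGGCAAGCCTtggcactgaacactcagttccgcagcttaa
Mdm2: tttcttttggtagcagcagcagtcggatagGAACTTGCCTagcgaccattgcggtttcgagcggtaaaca
Bax: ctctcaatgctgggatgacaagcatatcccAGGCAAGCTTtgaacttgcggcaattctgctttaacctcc
Trp53: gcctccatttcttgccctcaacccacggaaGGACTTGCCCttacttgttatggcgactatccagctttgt
These matches are letters in a window, and binding was not measured.

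The values are CPM (counts scaled to the library size), which the authors deposited after scaling, with 1 value per gene entry and library. Among the entries, 23 gene symbols were listed more than once. The columns were whole multiples of a step of 0.0142 to 0.0251 CPM, within 0.1 of a whole number for 100% of the values, and with that step as 1 read the libraries held 39857305 to 69600589 reads. At this depth 3 reads correspond to 0.0427 to 0.0752 CPM, a limit that covers counting error only, and each of the 10 genes was well above it in each of the 9 libraries. Differences were tested with limma on log2(CPM + 0.5), a scale that compresses changes of weakly expressed genes, in 1 fit of all 9 libraries, with *P* values adjusted over the 14670 genes and a threshold of 0.05. An exact permutation test of 3 libraries against 3 cannot give a *P* below 0.1, and this smallest value is reached where 2 groups do not overlap.

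The mutated genes were examined first. *Celsr3* had control values of 196, 243 and 214 CPM, against 122, 139 and 118 CPM in *Celsr3* mutants. The groups did not overlap, and the log2 difference was -0.78 ± 0.0910 (standard error, adjusted *P* = 0.0018). It missed the threshold in a per-gene test without moderation of variances (adjusted *P* = 0.177) and in a fit with a replicate block (log2 -0.71, adjusted *P* = 0.0699). *Fzd3* had control values of 58.0, 67.7 and 46.9 CPM, against 46.5, 39.8 and 59.6 CPM in *Fzd3* mutants. These groups overlapped (log2 difference -0.24 ± 0.147, adjusted *P* = 0.24). Without *Fzd3* mutant 3 the difference was -0.40 and passed (adjusted *P* = 0.0457), and without *Fzd3* mutant 2 it was -0.11 (adjusted *P* = 0.633, the highest over the alternatives). The *Fzd3* mutant allele lacks exon 3 and the table gives no value per exon, so the *Fzd3* CPM does not check the labels of these libraries.

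Some libraries stood apart in other genes. *Celsr3* mutant 4 had a summed CPM of 243 for 8 meningeal and mural markers, against 64.0 to 88.6 CPM in the other 8 libraries. *Xist*, which is transcribed from the inactive X chromosome in females, was at 0.744 CPM in *Celsr3* mutant 2 and at 0.803 CPM in control 3, and between 806 and 1147 CPM in the other 7 libraries, which include all 3 *Fzd3* mutants. For the 10 genes, and for named list genes between *Fzd3* mutant and control, adjusted *P* values without these libraries are given where a call was lost. Marker calls were not refitted without them, and the part of sex or of meningeal tissue in the other results was not tested beyond this.

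Of the 10 genes, 3 passed the threshold between *Fzd3* mutant and control, against 29.8% of all genes (4366 of 14670). *Ccng1* was higher, 1 of 10 against 15% of all genes that passed upwards, while *Trp53* and *Trp53inp1* were lower, 2 of 10 against 14.8%. Between *Celsr3* mutant and control 0 of 10 passed in limma, against 0.307% of all genes (45 of 14670), and 0 of 10 had an unadjusted *P* below 0.05, beside 800 of all 14670 genes. Between *Fzd3* mutant and control 5 of 10 had one, beside 6067 of all genes. In the direct comparison of the mutants 3 of 10 passed, against 29.6% of all genes: *Cdkn1a* was higher in the *Fzd3* mutants, 1 of 10 against 15.3%, and *Trp53* and *Trp53inp1* were lower, 2 of 10 against 14.3%. The libraries did not overlap for 6 of 10 genes between *Fzd3* mutant and control, against 43.8% of all genes, for 1 of 10 between *Celsr3* mutant and control, against 10.4%, and for 5 of 10 between the mutants, against 44.9%. The shares of the 10 genes were thus close to those of all genes in the comparisons with the *Fzd3* mutants. The median log2 difference of the 10 genes was 0.03 in each of the 3 comparisons, beside medians of all genes between -0.0047 and -0.00056, and 5, 6 and 5 of the 10 differences were above 0.

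**Figure D1:**
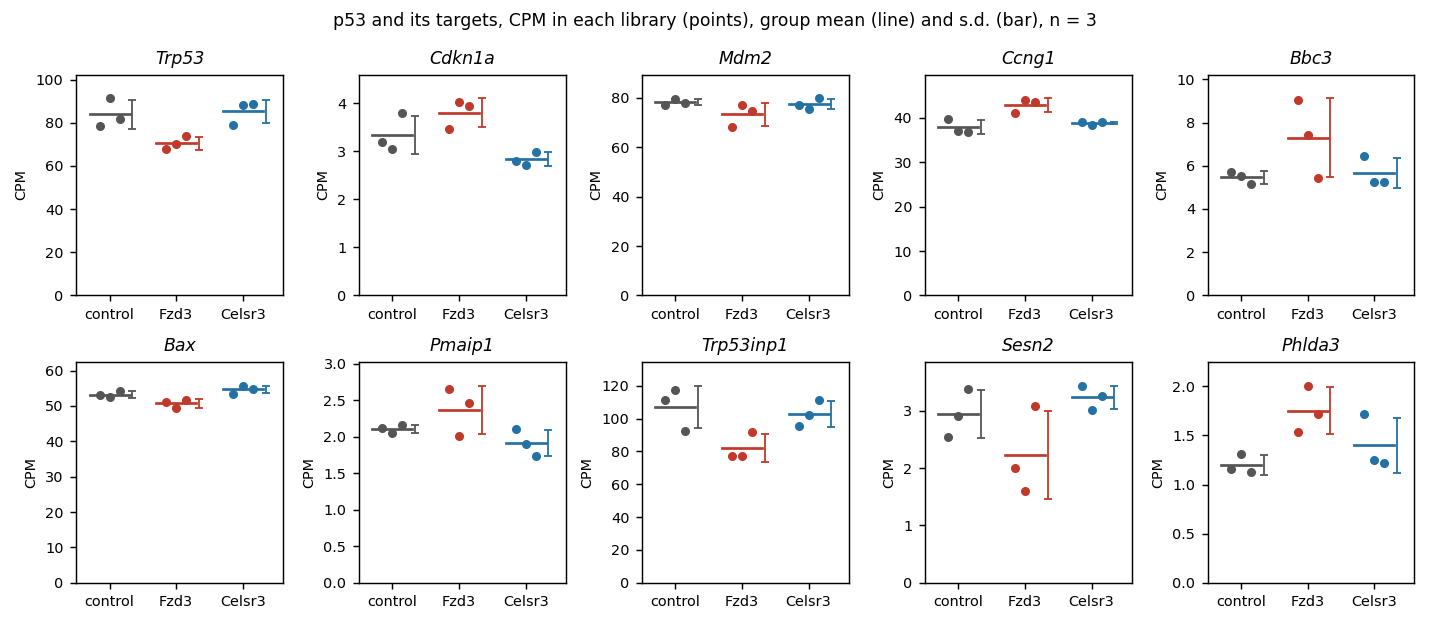
CPM of the 10 genes in each library (points, in the order of the library numbers), with the mean (line) and s.d. (bar) of the 3 libraries of a genotype. *Trp53* and *Trp53inp1* lie lower and *Ccng1* higher in the *Fzd3* mutants than in the controls without overlap, and the 3 *Fzd3* mutant values of *Bbc3* spread from 5.42 to 9.06 CPM.

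Levels of different genes were compared per kilobase of annotated exon. In the controls *Bax* was highest at 33.8 CPM per kb, followed by *Trp53* at 20.7, *Trp53inp1* at 16.6, *Mdm2* at 15.4 and *Ccng1* at 10.8 CPM per kb. *Bbc3* was at 2.57 CPM per kb, and *Cdkn1a*, *Sesn2*, *Pmaip1* and *Phlda3* lay between 0.940 and 0.769 CPM per kb. The control libraries of *Trp53inp1* and *Mdm2* overlapped on this scale, as did each pair of neighbours among the 4 lowest genes, so their order is not resolved. The wide gap between *Ccng1* and *Bbc3* was present in each genotype, with 12.2 against 3.44 CPM per kb in the *Fzd3* mutants and 11 against 2.66 CPM per kb in the *Celsr3* mutants. Thus 5 of the 10 genes, *Bbc3*, *Cdkn1a*, *Sesn2*, *Pmaip1* and *Phlda3*, were of low level in all 3 genotypes.

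*Trp53* (XLOC_004087; chr11:69580359-69591873, plus strand, in the GENCODE M21 annotation of GRCm38) encodes the factor itself. It had control values of 78.7, 91.4 and 81.7 CPM, *Fzd3* mutant values of 67.7, 70.4 and 73.7 CPM and *Celsr3* mutant values of 79.1, 88.3 and 88.6 CPM. All 3 *Fzd3* mutant libraries were below all 6 others, while *Celsr3* mutants and controls overlapped. The mean fell by 15.9% from 83.9 ± 6.67 (s.d., n = 3) to 70.6 ± 3.01 CPM in the *Fzd3* mutants. On the log2 scale the difference was -0.25 (95% confidence interval -0.39 to -0.10, adjusted *P* = 0.016), and against the *Celsr3* mutants it was -0.27 (adjusted *P* = 0.0098). The difference from controls did not pass without *Fzd3* mutant 1 (log2 -0.22, adjusted *P* = 0.0664) or without control 2 (log2 -0.18, adjusted *P* = 0.061), nor in a per-gene test without moderation of variances (adjusted *P* = 0.0627). Over 20 alternatives its adjusted *P* ran from 0.0122 to 0.0664. In the *Celsr3* mutants the log2 difference from controls was 0.03 with an interval of -0.12 to 0.17. The annotation holds a processed pseudogene, *Trp53-ps*, with which the authors' counting could have shared reads, so the level of *Trp53* is uncertain to that extent. In bulk tissue, fewer cells of a type and less RNA per cell cannot be told apart, here and for each gene below.

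Among the targets that act on the cell cycle or feed back on p53, *Ccng1* differed in the *Fzd3* mutants. *Ccng1* (XLOC_005148; chr11:40748552-40755311, minus strand) encodes cyclin G1, which recruits a phosphatase to MDM2, and its promoter carries the 20-base element printed above. Its CPM was 39.7, 37.1 and 36.8 among controls, 41.1, 43.9 and 43.6 among *Fzd3* mutants and 39.0, 38.4 and 39.0 among *Celsr3* mutants. The 3 *Fzd3* mutants were above the other 6 libraries, by a narrow margin over control 1. The log2 difference from controls was 0.18 (95% confidence interval 0.06 to 0.29, adjusted *P* = 0.0234), and against the *Celsr3* mutants it was 0.14 and missed the threshold (adjusted *P* = 0.0582), which it passed only without moderation of variances (0.044, beside up to 0.212 over the alternatives). The difference from controls did not pass without *Fzd3* mutant 2 (adjusted *P* = 0.0821), *Fzd3* mutant 3 (0.0576), control 2 (0.0745) or control 3 (0.0638), nor without both libraries of low *Xist* (log2 0.16, adjusted *P* = 0.091). This call was also lost with a replicate block (adjusted *P* = 0.0732), and the lowest adjusted *P* over the alternatives was 0.0167.

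*Cdkn1a* (XLOC_013186; chr17:29090976-29100727, plus strand) encodes p21, an inhibitor of cyclin-dependent kinases and a widely used readout of p53 activity. It had control values of 3.20, 3.04 and 3.79 CPM, *Fzd3* mutant values of 3.46, 4.02 and 3.93 CPM and *Celsr3* mutant values of 2.81, 2.72 and 2.99 CPM. The *Fzd3* mutants overlapped the controls, whereas the *Celsr3* mutants were below all other libraries. Neither mutant differed from controls past the threshold, with log2 differences of 0.17 (95% confidence interval -0.10 to 0.43, adjusted *P* = 0.326) and -0.20 (-0.46 to 0.07, adjusted *P* = 0.994). The direct difference between the mutants was 0.36 on the log2 scale (adjusted *P* = 0.0408). The call was lost without *Fzd3* mutant 1 (adjusted *P* = 0.0503), *Fzd3* mutant 2 (0.124), *Fzd3* mutant 3 (0.0905), *Celsr3* mutant 1 (0.0853), *Celsr3* mutant 2 (0.114), *Celsr3* mutant 4 (0.0661) or control 1 (0.0536). It was also lost without both libraries of low *Xist* (0.104) and with a replicate block (0.168, the highest over the alternatives). The lowest adjusted *P* over the alternatives was 0.0162. A transcript model on the opposite strand, AC167363.2, overlaps exons of *Cdkn1a*, and since the use of strand is not given in the sources used here, reads of the pair cannot be told apart.

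*Mdm2* (XLOC_003338), the ligase gene of the feedback loop, had control values of 77.1, 79.6 and 77.9 CPM, *Fzd3* mutant values of 67.9, 77.1 and 74.6 CPM and *Celsr3* mutant values of 77.1, 75.5 and 79.8 CPM. The highest *Fzd3* mutant library lay just under the lowest control. The log2 differences were -0.10 (95% confidence interval -0.21 to 0.02, adjusted *P* = 0.18) in the *Fzd3* mutants and -0.01 (-0.13 to 0.10) in the *Celsr3* mutants. Without *Fzd3* mutant 1 the difference in the *Fzd3* mutants was -0.04 (adjusted *P* = 0.556), and over the alternatives the adjusted *P* ran from 0.106 to 0.556.

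The pro-death genes *Bbc3*, *Bax* and *Pmaip1* of the BCL-2 family did not pass the threshold in any comparison of the 9 libraries with moderation of variances. *Bbc3* (XLOC_028309) encodes PUMA, a BH3-only protein and strong inducer of apoptosis. Its CPM was 5.72, 5.52 and 5.14 among controls, 9.06, 7.43 and 5.42 among *Fzd3* mutants and 6.45, 5.24 and 5.27 among *Celsr3* mutants. *Fzd3* mutants 1 and 2 were above all other libraries and *Fzd3* mutant 3 was among the controls, so that the s.d. was 1.82 CPM in the *Fzd3* mutants and 0.294 CPM in the controls. The log2 difference of 0.36 (95% confidence interval 0.01 to 0.71) had an adjusted *P* of 0.108. Without *Fzd3* mutant 3 it was 0.55 and passed (adjusted *P* = 0.011), a value that rests on 2 libraries, and without *Fzd3* mutant 1 it was 0.20 (adjusted *P* = 0.375, the highest over the alternatives). In the *Celsr3* mutants it was 0.04 (-0.31 to 0.39). Between the mutants it was 0.32 (adjusted *P* = 0.152), and without *Fzd3* mutant 3 it was 0.51 and passed (adjusted *P* = 0.0157). Without *Fzd3* mutant 1 the latter was 0.16 (adjusted *P* = 0.49, the highest over the alternatives).

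*Bax* (XLOC_030189) encodes an effector that permeabilises the outer mitochondrial membrane. It had control values of 52.9, 52.4 and 54.3 CPM, *Fzd3* mutant values of 51.2, 49.3 and 51.6 CPM and *Celsr3* mutant values of 53.5, 55.7 and 54.9 CPM. The *Fzd3* mutants lay below the other libraries by a small margin, and the log2 difference from controls was -0.07 (95% confidence interval -0.16 to 0.03, adjusted *P* = 0.264). Between the mutants it was -0.11 (adjusted *P* = 0.0859), and it passed without moderation of variances (adjusted *P* = 0.03, beside up to 0.239 over the alternatives). A gene model on the same strand, *Gm45808*, overlaps exons of *Bax*, so reads of this locus are uncertain to that extent. *Pmaip1* (XLOC_014830), which encodes the BH3-only protein NOXA, ranged from 2.05 to 2.16 CPM in the controls, from 2.01 to 2.65 CPM in the *Fzd3* mutants and from 1.74 to 2.1 CPM in the *Celsr3* mutants. Its groups overlapped in each comparison, and the log2 difference in the *Fzd3* mutants was 0.13 (-0.16 to 0.43, adjusted *P* = 0.494).

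Of the targets in stress and survival signalling, *Trp53inp1* (XLOC_021458; chr4:11156431-11174379, plus strand) differed most clearly. It encodes a stress protein that acts in autophagy and cell death. Its CPM was 112, 117 and 92.7 among controls, 77.3, 77.2 and 91.9 among *Fzd3* mutants and 95.6, 102 and 111 among *Celsr3* mutants. The *Fzd3* mutants were below all other libraries, although *Fzd3* mutant 3 and control 3 were nearly equal. The mean fell by 23.4% from 107 ± 12.9 (s.d., n = 3) to 82.1 ± 8.45 CPM in the *Fzd3* mutants. The log2 difference was -0.38 (95% confidence interval -0.59 to -0.17, adjusted *P* = 0.0115) from controls and -0.33 (adjusted *P* = 0.0232) from the *Celsr3* mutants. The difference from controls did not pass without *Fzd3* mutant 1 (log2 -0.34, adjusted *P* = 0.0517) or without moderation of variances (adjusted *P* = 0.0695), and the lowest adjusted *P* over the alternatives was 0.0023. That between the mutants did not pass without *Fzd3* mutant 1 (adjusted *P* = 0.0894), *Fzd3* mutant 2 (0.0866), *Celsr3* mutant 2 (0.0566) or *Celsr3* mutant 4 (0.0869). It also did not pass without moderation of variances (0.102), without a trend of the variance (0.0567) or with a replicate block (log2 -0.26, adjusted *P* = 0.175).

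*Sesn2* (XLOC_023853), a sestrin gene that restrains mTORC1 and is also a target of the stress factor ATF4, had control values of 2.54, 2.91 and 3.39 CPM, *Fzd3* mutant values of 2, 1.60 and 3.07 CPM and *Celsr3* mutant values of 3.42, 3.01 and 3.26 CPM. *Fzd3* mutants 1 and 2 were the lowest libraries and *Fzd3* mutant 3 lay among the controls. The log2 difference from controls was -0.37 (95% confidence interval -0.77 to 0.04, adjusted *P* = 0.157), and without *Fzd3* mutant 3 it was -0.58 and passed (adjusted *P* = 0.0181). Without *Fzd3* mutant 2 it was -0.20 (adjusted *P* = 0.471, the highest over the alternatives). Between the mutants the *Sesn2* difference was -0.49 (adjusted *P* = 0.0678), and it was -0.70 without *Fzd3* mutant 3 (adjusted *P* = 0.0076) and -0.32 without *Fzd3* mutant 2 (adjusted *P* = 0.239, the highest over the alternatives). *Phlda3* (XLOC_000669), whose product competes with AKT for membrane lipids, was among the 4 lowest of the 10 genes per kilobase in the controls. It had control values of 1.16, 1.31 and 1.13 CPM, *Fzd3* mutant values of 1.53, 2.01 and 1.72 CPM and *Celsr3* mutant values of 1.72, 1.25 and 1.22 CPM. The *Fzd3* mutants were above the controls, and *Celsr3* mutant 1 lay among them. The log2 difference from controls was 0.40 (0.06 to 0.75, adjusted *P* = 0.0729), and it passed in a fit without a trend of the variance on abundance (adjusted *P* = 0.0336, beside up to 0.221 over the alternatives).

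**Figure D2:**
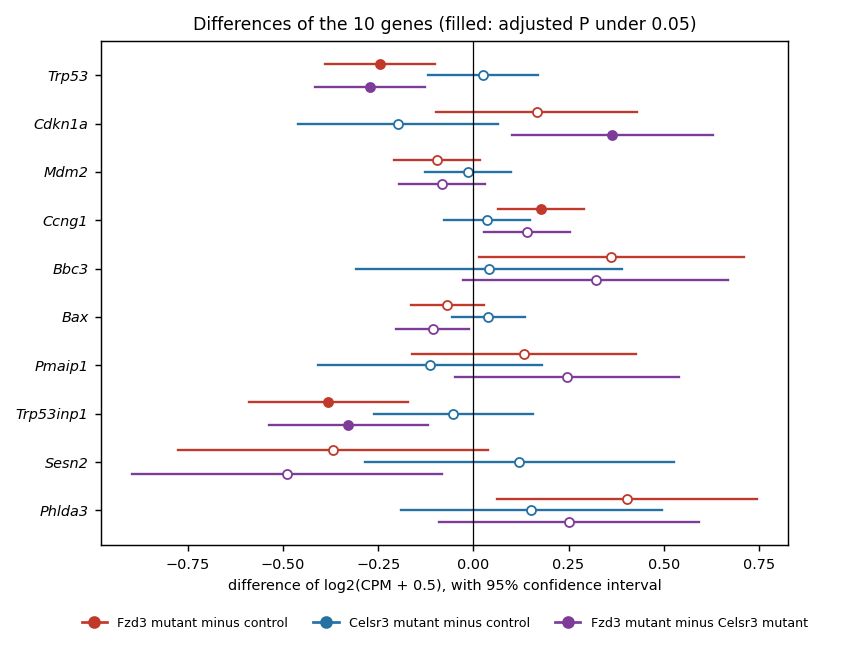
Differences of log2(CPM + 0.5) of the 10 genes in the 3 comparisons, with 95% confidence intervals from the fit of all 9 libraries, and filled points for an adjusted *P* below 0.05. The intervals of *Trp53*, *Trp53inp1* and *Ccng1* between *Fzd3* mutant and control exclude 0 and their points are filled. Those of *Bbc3* and *Phlda3* lie above 0 as well, but their points are open. No point is filled between *Celsr3* mutant and control.

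The *Fzd3* and *Celsr3* comparisons share the control libraries, so their values are given side by side and not combined. *Trp53*, *Trp53inp1* and *Ccng1* had log2 differences of -0.25, -0.38 and 0.18 in the *Fzd3* mutants and of 0.03, -0.05 and 0.04 in the *Celsr3* mutants. For the 3 pro-death genes *Bbc3*, *Bax* and *Pmaip1* the values were 0.36, -0.07 and 0.13 in the *Fzd3* mutants and 0.04, 0.04 and -0.11 in the *Celsr3* mutants. The intervals in the *Celsr3* mutants were narrow for *Bax*, *Mdm2*, *Ccng1* and *Trp53*, none of which reached beyond -0.13 or 0.17. That of *Trp53inp1* was of intermediate width, from -0.26 to 0.16. Those of the 5 genes of low level were wide, up to 0.53 for *Sesn2*.

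Other p53 targets were examined as a list of 37 genes, of which 31 were found. In the *Fzd3* mutants 3 were higher and 6 lower past the threshold, and 22 did not pass, beside 15% of all genes higher and 14.8% lower. The share of the list was thus close to that of all genes. Their median log2 difference was -0.09, beside -0.00056 for all genes. In the *Celsr3* mutants 0 of 31 passed in limma, 2 had an unadjusted *P* below 0.05, beside 800 of all 14670 genes, and the median was 0.0040. *Ddb2*, which encodes a sensor of ultraviolet damage in nucleotide excision repair, had control values of 15.2, 13.7 and 14.4 CPM, *Fzd3* mutant values of 22.6, 26.0 and 21.9 CPM and *Celsr3* mutant values of 15.6, 14.9 and 14.9 CPM. The *Fzd3* mutants were well above the other 6 libraries, with a log2 difference of 0.68 from controls (adjusted *P* = 0.000144). *Ephx1*, an epoxide hydrolase gene of detoxification, had control values of 1.23, 0.985 and 1.98 CPM, against 3.55, 3.02 and 1.81 CPM in *Fzd3* mutants. The groups overlapped, and its difference (log2 0.79, adjusted *P* = 0.0276) did not pass without *Fzd3* mutant 1 (0.113), *Fzd3* mutant 2 (0.0911), control 1 (0.0818) or control 2 (0.103), nor without moderation of variances (0.0943).

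Of the 31 targets, 6 were lower in the *Fzd3* mutants, beside 14.8% of all genes. *Btg2*, an antiproliferative gene that is also a marker of progenitors about to produce neurons, had control values of 30.9, 33.0 and 27.4 CPM, *Fzd3* mutant values of 17.3, 17.1 and 19.0 CPM and *Celsr3* mutant values of 29.9, 30.6 and 35.0 CPM. Its *Fzd3* mutant libraries were far below the rest (log2 -0.76, adjusted *P* = 0.00013). *Gtse1*, expressed in the G2 and S phases, had a log2 difference of -0.75 (adjusted *P* = 0.0161), which did not pass without *Fzd3* mutant 2 (0.0647) or control 2 (0.0633), nor without moderation of variances (0.0828). *Siva1*, which encodes an apoptosis-inducing factor, fell from 12.8 ± 0.687 to 9.06 ± 0.98 CPM (s.d., n = 3; log2 -0.48, adjusted *P* = 0.0033). *Trp53i13* was at 4.32 ± 0.156 CPM in the controls and 3.04 ± 0.261 CPM in the *Fzd3* mutants (log2 -0.45, adjusted *P* = 0.0158), and it did not pass without *Fzd3* mutant 2 (0.0629) or control 2 (0.055). The other 3 genes past the threshold were named after their values were seen. *Zmat3* and *Sesn1* were lower (log2 -0.32 and -0.17) and *Apaf1*, the apoptosome scaffold, was higher (log2 0.16). *Zmat3* lost its call without *Fzd3* mutant 1 (adjusted *P* = 0.0552) or *Fzd3* mutant 2 (0.0521). *Sesn1* lost it without *Fzd3* mutant 1 (0.108), *Fzd3* mutant 2 (0.0589), control 1 (0.0791) or control 2 (0.0601), without both libraries of low *Xist* (0.0611) and without a trend of the variance (0.0518). *Apaf1* lost it in 9 of 20 alternatives, among them those without *Fzd3* mutant 1 (0.126), *Fzd3* mutant 2 (0.0885), control 1 (0.0761), control 2 (0.0719) or control 3 (0.0594), without both libraries of low *Xist* (0.0841), without a trend of the variance (0.0554) and with only the 6 libraries of the comparison (0.0601).

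Regulators of p53 were examined as a list of 25 genes, of which 23 were found, with 0 higher, 6 lower and 17 not past the threshold in the *Fzd3* mutants, beside 29.8% of all genes past it, 15% higher and 14.8% lower. The median log2 difference was -0.11. In the *Celsr3* mutants 0 of 23 passed in limma, 1 had an unadjusted *P* below 0.05, beside 800 of all 14670 genes, and the median was -0.01. *Chek1*, the checkpoint kinase gene of S and G2 phase, had control values of 15.4, 15.4 and 13 CPM, against 8.57, 9.03 and 11 CPM in *Fzd3* mutants without overlap (log2 -0.59, adjusted *P* = 0.0055). *Chek2*, the kinase gene of the response to double-strand breaks, was at 6.64 ± 0.724 CPM in the controls and 4.42 ± 0.612 CPM in the *Fzd3* mutants (s.d., n = 3; log2 -0.54, adjusted *P* = 0.0061). *Trp53bp2*, which encodes a cofactor of p53 at death genes, had a log2 difference of -0.27. The ribosomal protein genes *Rpl5* and *Rpl11*, whose products bind MDM2 under ribosomal stress, had log2 differences of -0.23 and -0.16, and their values are uncertain because they have many near-identical pseudogenes. *Rchy1*, a ubiquitin ligase gene, had a log2 difference of -0.17 that did not pass in 12 of 20 alternative fits. Among these were the fits without *Fzd3* mutant 1 (adjusted *P* = 0.106), *Fzd3* mutant 2 (0.0757), *Fzd3* mutant 3 (0.0687), *Celsr3* mutant 2 (0.0502), control 1 (0.105) or control 3 (0.114), and that without both libraries of low *Xist* (0.14). The inhibitor gene *Mdm4* was not past the threshold (log2 0.10, adjusted *P* = 0.223).

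Genes of intrinsic and extrinsic apoptosis were examined as a list of 34 genes, of which 32 were found, with 1 higher, 6 lower and 25 not past the threshold in the *Fzd3* mutants, beside 29.8% of all genes past it, 15% higher and 14.8% lower. The median log2 difference was -0.03. *Hrk*, which encodes the BH3-only protein harakiri and is known from neurons deprived of survival factors, was the gene that was higher. Its CPM was 9.17, 7.01 and 9.21 among controls, 24.9, 27.1 and 22.4 among *Fzd3* mutants and 13.3, 19.8 and 11.5 among *Celsr3* mutants. The 3 genotypes did not overlap, with the *Celsr3* mutants between controls and *Fzd3* mutants. The log2 difference from controls was 1.5 ± 0.173 (standard error, adjusted *P* = 0.000148) in the *Fzd3* mutants and 0.75 in the *Celsr3* mutants, where it did not pass after adjustment (adjusted *P* = 0.221). The mutants differed by 0.75 (adjusted *P* = 0.0079), a call lost without moderation of variances (0.0584) and with a replicate block (log2 0.60, adjusted *P* = 0.0731).

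The other genes of the list past the threshold were lower in the *Fzd3* mutants. *Casp6*, an executioner caspase gene, had control values of 11, 11.4 and 13.2 CPM, against 7.90, 8.49 and 7.06 CPM in *Fzd3* mutants without overlap (log2 -0.57, adjusted *P* = 0.0047). *Bmf*, another BH3-only gene, was at 8.57 ± 0.427 CPM in the controls and 5.86 ± 0.098 CPM in the *Fzd3* mutants (s.d., n = 3; log2 -0.51, adjusted *P* = 0.0017). *Casp2*, *Aifm1* and *Parp1*, for an initiator caspase, a mitochondrial flavoprotein and a poly(ADP-ribose) polymerase, had log2 differences of -0.31, -0.30 and -0.30. *Diablo*, named after its values were seen, had one of -0.15, which did not pass in 8 of 20 alternative fits. Among these were the fits without *Fzd3* mutant 1 (adjusted *P* = 0.0517), *Fzd3* mutant 2 (0.064), *Fzd3* mutant 3 (0.0575), control 1 (0.0749) or control 3 (0.0512), and that without both libraries of low *Xist* (0.0777). In the *Celsr3* mutants 0 of 32 genes passed in limma, and 1, *Hrk*, had an unadjusted *P* below 0.05, beside 800 of all 14670 genes.

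**Figure D3:**
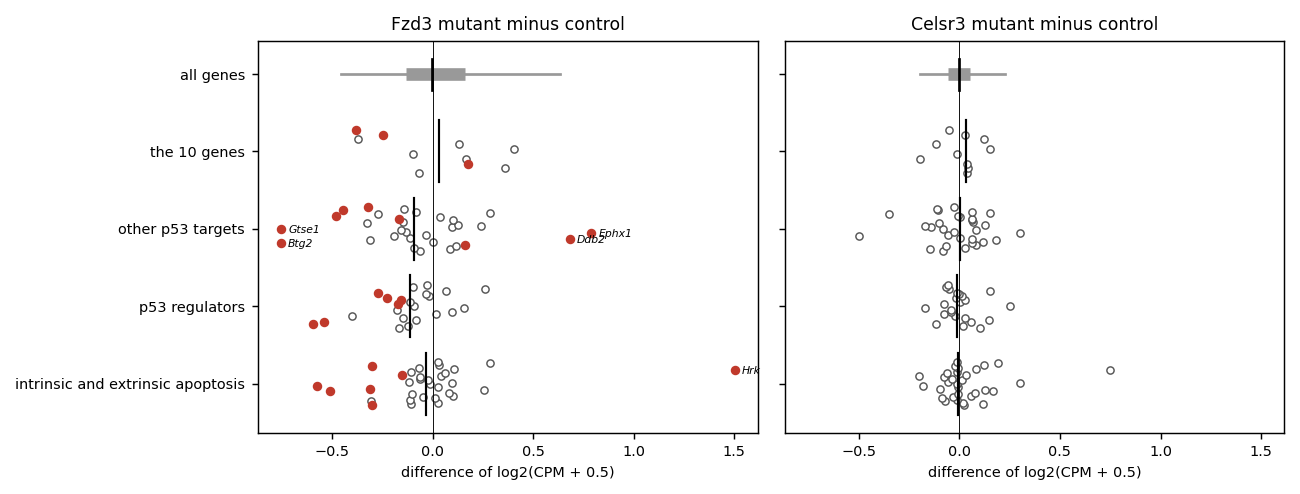
Differences of log2(CPM + 0.5) from controls for the 10 genes and for each gene of the 3 lists (points, filled where the adjusted *P* was below 0.05, with a bar at the median), beside all 14670 genes (thin line, 5th to 95th percentile; thick line, quartiles; bar, median). *Hrk* at 1.5 lies furthest to the right in the *Fzd3* mutants, and no point is filled in the *Celsr3* mutants.

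**Figure D4:**
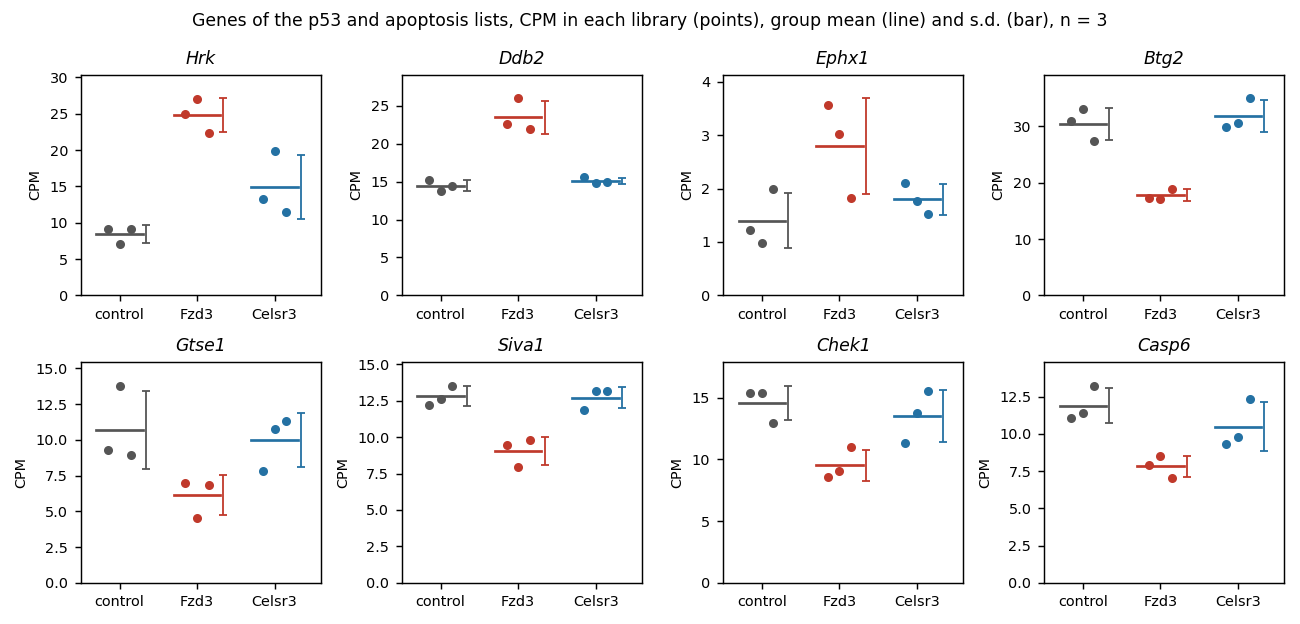
CPM of 8 genes of the lists in each library (points), with the mean (line) and s.d. (bar) of the 3 libraries of a genotype. *Hrk* and *Ddb2* are higher and *Btg2*, *Gtse1*, *Siva1*, *Chek1* and *Casp6* lower in the *Fzd3* mutants than in the controls without overlap, whereas *Ephx1* overlaps.

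The genes whose profiles over the 9 libraries were most like those of the 3 genes past the threshold were found among 14381 others by the root mean square difference of log2 values centred on the control mean. For *Trp53* they were *Sf3a2* and *Raver1*, both encoding RNA-binding proteins of splicing, with differences of 0.0415 and 0.0442. *Sf3a2* was at 58.2 ± 3.93 CPM in the controls and 49.8 ± 1.14 CPM in the *Fzd3* mutants. For *Trp53inp1* they were *Cep192*, a centrosome gene, and *Rrm2*, a subunit gene of ribonucleotide reductase and 1 of the 10 proliferation markers below, with differences of 0.0555 and 0.0562. *Rrm2* was at 72.3 ± 6.78 CPM in the controls and 57.5 ± 3.39 CPM in the *Fzd3* mutants. For *Ccng1* they were *Dzip3* (0.0204) and *Ptcd2* (0.0275), and *Dzip3* was at 159 ± 6.14 CPM in the controls and 179 ± 3.51 CPM in the *Fzd3* mutants (s.d., n = 3).

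Markers of the cell types of the cortex moved with the *Fzd3* genotype. The summed CPM of 10 proliferation markers, of which *Top2a* was most abundant, was 1053, 1121 and 951 in the controls, 602, 635 and 695 in the *Fzd3* mutants and 938, 1010 and 1077 in the *Celsr3* mutants, and 10 of 10 were lower in the *Fzd3* mutants past the threshold, beside 14.8% of all genes. Of 11 apical progenitor markers, led by *Vim*, 9 were lower (14.8% of all genes), and their sum was 1543, 1636 and 1554 CPM in the controls, 1175, 1237 and 1134 CPM in the *Fzd3* mutants and 1413, 1467 and 1550 CPM in the *Celsr3* mutants. Of 7 intermediate progenitor markers, led by *Eomes*, 7 were lower (14.8% of all genes), and their sum was 448, 474 and 403 CPM in the controls, 265, 291 and 322 CPM in the *Fzd3* mutants and 441, 497 and 504 CPM in the *Celsr3* mutants. The *Fzd3* mutants were thus below all other libraries in each of these 3 lists. The part of cell composition in the differences of the p53 targets and of the genes of the pathway lists was not tested.

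Other marker lists moved less or in the other direction, and their counts stand beside 15% of all genes higher and 14.8% lower. Of 10 endothelial markers, led by *Kdr*, 4 were higher and 0 lower in the *Fzd3* mutants, and their sum was 141, 140 and 148 CPM in the controls, 209, 207 and 184 CPM in the *Fzd3* mutants and 147, 132 and 186 CPM in the *Celsr3* mutants. Of 9 microglia and macrophage markers, led by *Csf1r*, 3 were higher and 0 lower, with sums of 38.8, 45.0 and 43.2 CPM in the controls, 68.0, 63.8 and 46.2 CPM in the *Fzd3* mutants and 42.9, 46.9 and 55.4 CPM in the *Celsr3* mutants. *Fzd3* mutants 1 and 2 were the highest libraries in both sums, and this was not tested further. Of 9 cortical neuron markers, led by *Dcx*, 1 was higher and 5 lower, while their sum was nearly equal, at 5947 ± 224 CPM in the controls, 5988 ± 176 CPM in the *Fzd3* mutants and 6024 ± 151 CPM in the *Celsr3* mutants (s.d., n = 3). The defining neuron markers were thus abundant in each genotype, as the labelled tissue requires. Of 9 interneuron markers, led by *Dlx1*, 1 (*Npy*, 17.3 CPM in the controls and 68.2 CPM in the *Fzd3* mutants) was higher and 0 lower, with a median log2 difference of -0.02 and sums of 275 ± 19.6, 332 ± 43.3 and 240 ± 31.7 CPM. Of 8 red blood cell markers, led by *Hba-a1*, 0 were higher and 1 lower, with sums of 1909 ± 137, 2101 ± 466 and 2181 ± 519 CPM in the same order. Of the 8 meningeal and mural markers, led by *Rgs5*, 0 passed in limma and 3 had an unadjusted *P* below 0.05, beside 6067 of all 14670 genes. In these lists 0 genes were at 0 CPM in any library. Between *Celsr3* mutant and control 0 genes of the 9 marker lists passed, beside 45 of all 14670 genes. At an unadjusted *P* below 0.05 there were 4 of 9 cortical neuron markers, 4 of 9 interneuron markers and 0 to 2 of each other list, beside 800 of all genes.

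**Figure D5:**
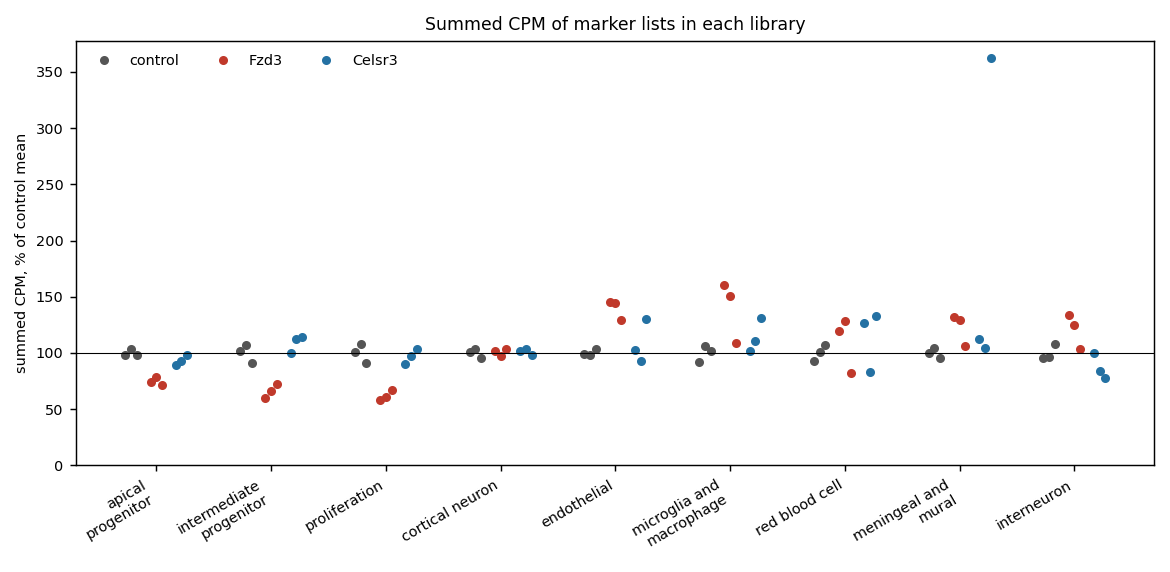
Summed CPM of 9 marker lists in each library as a percentage of the control mean (line at 100). The *Fzd3* mutants lie between 57.8% and 78.4% for the progenitor and proliferation lists and above the controls for the endothelial list, and *Celsr3* mutant 4 stands at 362% for meningeal and mural markers.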

How the data were processed

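RNA of E16.5 cortex was measured in 9 libraries, 3 per genotype, grouped by the sample labels. The authors deposited CPM values for 14670 genes, made by a company from Illumina libraries, and the columns total 990141 to 1012199 CPM. The submitters' processing notes name FastQC, TopHat, TopHat2, Bowtie, Cufflinks 2.1.1 and edgeR 2.12 and the builds GRCm38 and GRCh37, without roles. The strand setting and annotation are not given in the sources used here.

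Differences were computed with limma 3.58.1 in R 4.3.3 (lmFit, contrasts, eBayes with trend) on log2(CPM + 0.5), with a filter at 0.5 CPM on the mean that removed 0 genes, and Benjamini-Hochberg adjustment over 14670 genes. The fit was tested on simulated data. Exact permutation tests were two-sided (scipy 1.17.1, Python 3.11.15). Exon lengths and positions came from GENCODE M21, and promoter sequences from RefSeq. The genes named were the 10 genes, *Fzd3* and *Celsr3*, up to 6 genes of each of 3 pathway lists with the largest change past the threshold, and the 2 most similar profiles for each of the 10 genes past the threshold, among genes averaging 1 CPM or more. *Zmat3*, *Sesn1*, *Apaf1*, *Diablo*, *Npy*, *Mdm4*, *Xist* and the most abundant gene of each marker list were named outside this rule. The result for 1 gene is not reported here. The 10 genes and the lists were chosen with earlier results of these data known. Alternatives covered the pseudocount, filter, scaling, libraries fitted, moderation, replicate block and each library left out, and leaving out libraries of low *Xist* was chosen after seeing the data.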

Additional observations from a re-analysis of the deposited data

Results flagged for a closer look

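In the direct comparison of the mutants, 21 genes, counted over the 10 genes and the named genes of the 3 pathway lists, differed past the threshold, which tests whether the *Fzd3* and *Celsr3* effects against the shared controls differ. Values are log2 differences, *Fzd3* mutant minus *Celsr3* mutant. Among the 10 genes they were -0.27 for *Trp53*, -0.33 for *Trp53inp1* and 0.36 for *Cdkn1a*. The call held in 20 of 20 alternatives for *Trp53*, and it was lost in 7 of 20 for *Trp53inp1* and in 9 of 19 for *Cdkn1a*. The differences from controls of *Cdkn1a* were 0.17 and -0.20, neither past the threshold.

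Among the other p53 targets the differences were -0.82 for *Btg2*, -0.67 for *Gtse1*, 0.62 for *Ddb2*, -0.47 for *Siva1*, -0.29 for *Zmat3* and -0.23 for *Sesn1*. Among the regulators they were -0.48 for *Chek1*, -0.60 for *Chek2*, -0.26 for *Trp53bp2*, -0.21 for *Rpl5* and -0.18 for *Rpl11*. Among the apoptosis genes they were 0.75 for *Hrk*, -0.40 for *Casp6*, -0.68 for *Bmf*, -0.22 for *Casp2*, -0.32 for *Aifm1*, -0.28 for *Parp1* and -0.19 for *Diablo*. The named list genes were chosen for passing between *Fzd3* mutant and control, which shares the *Fzd3* mutant libraries, so their passing here is partly built in. The call of *Hrk* was lost in 2 of 20 alternatives. For the other named list genes this comparison was not examined in the alternatives. Over the whole lists, 3 of 31 other targets were higher and 6 lower, 1 of 23 regulators was higher and 7 lower, and 1 of 32 apoptosis genes was higher and 6 lower, beside 15.3% and 14.3% of all genes. The part of the lower progenitor and proliferation markers of the *Fzd3* mutants in these values was not tested.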

How the results depend on the processing

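The number of genes past the threshold between *Fzd3* mutant and control was 4366 and within 1.5 times of this in each of 20 alternative fits, from 2958 without *Fzd3* mutant 1 to 4312 without *Celsr3* mutant 1 when a library was left out. Between *Celsr3* mutant and control it was 45, with 39 to 53 when a library was left out, 24 in the per-gene test without moderation and 29 with the replicate block. Between the mutants it was 4346, with 2971 to 4471 when a library was left out and 2101 with the replicate block. The cause of these changes was not tested. Same-numbered libraries had correlations of -0.199 to -0.0697 between *Fzd3* mutant and control, -0.0132 to 0.0728 between *Celsr3* mutant and control and -0.08 to 0.192 between the mutants, and no pairing by number is given in the labels. Without both libraries of low *Xist* the counts were 3904, 54 and 3336.

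Of the 10 genes, none of the 10 changed sign between *Fzd3* mutant and control or between the mutants in any of these fits. Between *Celsr3* mutant and control, small log2 differences changed sign: *Bbc3* was at -0.027 with the replicate block, and without both libraries of low *Xist* *Trp53* was at -0.018 and *Mdm2* at 0.0015. With 1 library left out, the log2 differences in the *Celsr3* mutants ranged from -0.019 to 0.089 for *Trp53*, -0.035 to 0.0040 for *Mdm2*, -0.049 to 0.088 for *Bbc3*, -0.15 to 0.016 for *Trp53inp1* and -0.16 to 0.10 for *Fzd3*. With the replicate block the adjusted *P* was 0.0732 for *Ccng1* between *Fzd3* mutant and control, and 0.168 for *Cdkn1a*, 0.175 for *Trp53inp1* and 0.049 for *Sesn2*, a gained call, between the mutants. With the block *Ephx1* (0.0547), *Sesn1* (0.0576), *Apaf1* (0.067), *Rchy1* (0.088) and *Diablo* (0.0803) also lost their calls between *Fzd3* mutant and control. The edgeR test on reads was not run. At 1 read per step the lowest libraries held 45 reads of *Phlda3*, 74 of *Sesn2*, 86 of *Pmaip1* and 149 of *Cdkn1a*, so counting error adds to the spread of these genes.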
